A study of Mus musculus with 20 samples.

Results

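The comparison described here is that of sorted cones lacking Dgcr8 with control cones at postnatal day 50 (P50), taken from a mouse time course of 20 libraries. It compares 4 libraries, 2 from knockout (KO) and 2 from wild-type (WT) animals. It covers the 10808 of 23077 named gene symbols whose mean level in those libraries was at least 5 CPM, counts of a gene per 1 M (mega) counts of a library. This minimum and the summed levels of gene lists below are in CPM without scaling, and the sums include members under 5 CPM. Levels of single genes are in CPM after TMM scaling. The 12 largest rises and falls by p, and other genes taken by a written rule, are described one by one. The minimum parted genes that hardly differ in level: the highest mean left out was 4.999 CPM and the lowest mean kept was 5.001 CPM. All mice had the C57BL/6 background and lived under a light cycle of 12 h. KO animals are labelled D4-cre/DGCR8 KO/Ai9 tdTomato, that is, a conditional Dgcr8 allele, a Cre line active in cones after birth and a red reporter that Cre switches on. WT animals are labelled D4-cre/Ai9 tdTomato, so the controls carry the Cre and, by that label, the reporter, while the protocol also allows D4-cre animals without it. Cones were taken from retina by fluorescence-activated sorting, and no label says whether retinas of several animals were pooled. Whether the 2 replicates of a group are different animals is not stated either. The fit took in all 20 libraries, and its 10 groups, of both genotypes and all ages, share the estimate of spread. The p-values at P50 therefore set a difference only against the spread between replicates over the whole series, and that spread may be technical.

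DGCR8 is the RNA-binding partner of the nuclease DROSHA. Together they cut the hairpin precursor of a canonical microRNA out of a longer primary transcript in the nucleus, after which DICER1 trims it and an Argonaute protein carries it to messenger RNAs that pair with its seed, bases 2 to 8. Pairing lowers the stability or translation of the target. Cones are the photoreceptors of daylight and colour vision. In mouse most of them hold the short-wavelength opsin, the middle-wavelength opsin or both, in an outer segment that is rebuilt throughout life. Photoreceptors are known for a high level of the miR-183/96/182 cluster, and miR-29 and let-7 are abundant in mature neurons.

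The seeds of these microRNAs, in capitals, show which target sites the measurements below refer to. The mature sequences are from RefSeq (GRCm38.p6).
miR-182-5p: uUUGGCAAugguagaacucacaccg
miR-96-5p: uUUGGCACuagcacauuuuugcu
miR-183-5p: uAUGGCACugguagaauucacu
miR-29c-3p: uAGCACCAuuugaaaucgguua
miR-29b-3p: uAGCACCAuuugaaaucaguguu
let-7b-5p: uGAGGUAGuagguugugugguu
The seeds of miR-29b and miR-29c are identical, so both pair with the site TGGTGCT. The site of miR-182 is TTGCCAA, that of miR-96 is GTGCCAA, that of miR-183 is GTGCCAT and that of let-7b is CTACCTC. The 3 members of the cluster have different seeds.

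The WT libraries held 4.34 and 4.07 M counts and the KO libraries 5.11 and 7.53 M counts. Olfactory and vomeronasal receptor genes, 1427 in the files, took 0.0633% and 0.0643% of counts in WT and 0.0627% and 0.0603% in KO. They were taken as genes silent in retina, but they include Olfr1372-ps1, which rose in KO. Their nearly equal share in the 4 libraries is therefore no clean measure of background. The counts of 2 replicates differed by more than sampling noise, with a chi-square per gene of 3.19 in WT and 3.06 in KO, and no library was a copy of another. Dgcr8 itself (chr16:18253948-18289246, GRCm38) was at 78.5 and 82.1 CPM in the WT libraries and 51.8 and 56.8 CPM in the KO libraries. It was lower in each KO library than in each WT library, and it fell by 0.56 on the log2 scale (SE 0.147, adjusted p = 0.00345), a call that was lost without WT replicate 2 (adjusted p = 0.0510) or without KO replicate 1 (adjusted p = 0.0782). No source used here names the exons that Cre removes, so a count over the whole gene is only a partial check of the deletion.

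All 4 libraries held both female and male transcripts, so each held RNA of animals of both sexes, though no label states pooling. Xist, the RNA that silences one X chromosome in females, was at 874 and 884 CPM in the WT libraries and 466 and 499 CPM in the KO libraries. Ddx3y, a gene of the Y chromosome, was at 102 and 97.1 CPM in WT and 264 and 248 CPM in KO. The other Y-linked genes stood in the same order, with Uty at 114 and 95.5 CPM in WT and 150.2 and 165 CPM in KO. The share of Y-linked transcripts was therefore higher and that of Xist lower in KO, and the part of this in other differences was not tested.

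Across the 10808 genes, KO cones differed from WT cones in a large share of the transcriptome. In edgeR's quasi-likelihood test, with p-values adjusted by Benjamini and Hochberg over all 18354 genes tested and a call at an adjusted p below 0.05, 2114 genes (19.6%) rose in KO and 701 genes (6.49%) fell. This split depends on how libraries are scaled. With TMM factors taken from the 5590 genes of at least 32 mean CPM over all 20 libraries, 1193 rose (11.04%) and 1490 fell (13.8%). The median log2 fold change of the 10808 genes, KO minus WT, moved from 0.09 to -0.13, a shift of -0.22. Genes called in the same direction with both sets of factors numbered 1193 higher (11.04%) and 701 lower (6.49%). Of these, 272 rose and 238 fell by at least 2-fold. Both KO libraries lay above both WT libraries in 4451 of the 10808 genes (41.2%) and below them in 2807 (26.0%), so lack of overlap alone was common among all genes. In the text below, a gene that rose or fell is one called in the fit with the first scaling. Counts with the second scaling are given beside those of a list where they differ most, and a gene described by its values whose call is lost there is said to lose it. The counts of every list are to be read beside the shares of all genes, 19.6% higher and 6.49% lower with the first scaling and 11.04% and 13.8% with the second.

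**Figure D1:**
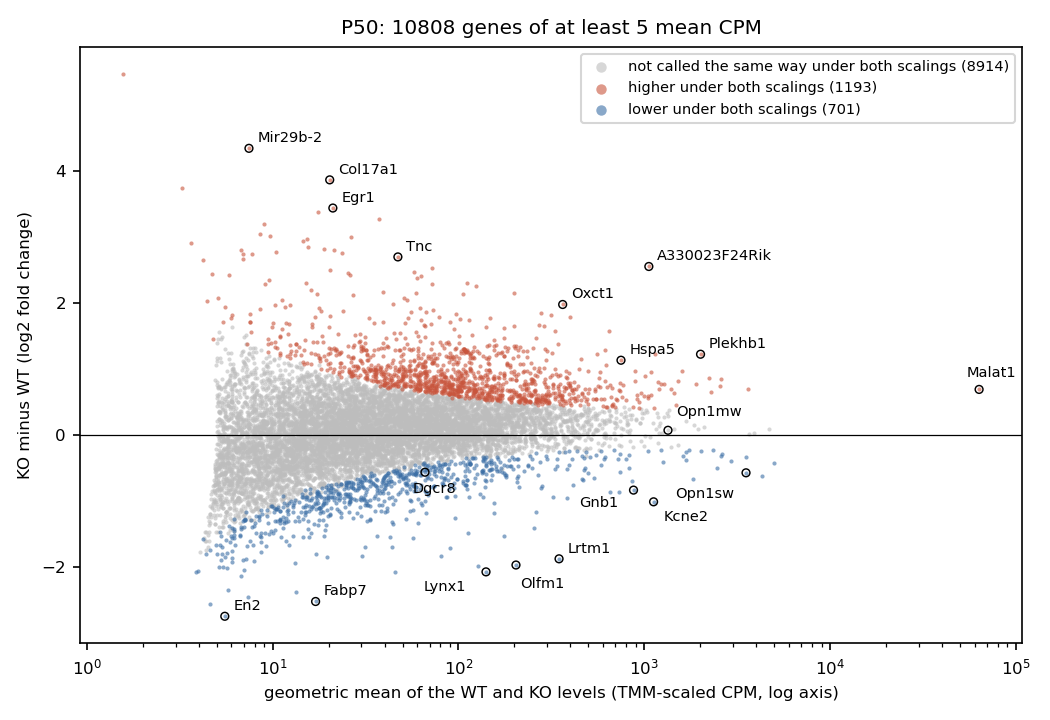
Log2 fold change, KO minus WT, of each of the 10808 genes against its mean level in the 4 libraries (TMM-scaled CPM, log axis). Coloured points are the 1193 genes higher and the 701 genes lower under both scalings, and named points reach from Mir29b-2, 4.35 above 0, to En2, 2.75 below it.

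Among genes of the microRNA pathway more rose than fell, and 11 were not called. Of 21 with at least 5 CPM, 9 rose and 1, Dgcr8, fell, with a median log2 fold change of 0.45 beside 0.09 for all genes. With the second scaling 8 rose and 4 fell, and the median was 0.24 beside -0.13. Drosha, which encodes the nuclease, was at 76.6 and 78.4 CPM in the WT libraries and 109 and 106 CPM in the KO libraries. Its log2 fold change of 0.47 (SE 0.135, adjusted p = 0.00822) fell to 0.25 (adjusted p = 0.224) with the second scaling, and the call was also lost without WT replicate 1, WT replicate 2 or KO replicate 1. Dicer1, the cytoplasmic enzyme, was at 189.8 and 166 CPM in the WT libraries and 288 and 318 CPM in the KO libraries, and its log2 fold change was 0.77 (SE 0.0989, adjusted p = 4.21e-09). The KO libraries lay above the WT libraries for Drosha and for Dicer1. Tnrc6b and Tnrc6a, which link Argonaute to the machinery that shortens poly(A) tails, had log2 fold changes of 0.76 (SE 0.0804, adjusted p = 9.16e-12) and 0.68 (SE 0.0965, adjusted p = 6.24e-08), and Ddx17, an RNA helicase of the nuclear processing complex, of 0.45 (SE 0.0655, adjusted p = 1.02e-07). The others that rose were Cnot1, Eif2c2 (the older symbol of an Argonaute gene), Tnrc6c and Xpo5, which exports hairpins from the nucleus. Drosha was the one of the 9 that was not called with the second scaling.

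The transcripts with the largest rises included long RNAs and hairpins of microRNA genes. The kit used here copies long RNA, so counts on a microRNA gene come from the primary transcript and not from the mature microRNA. A330023F24Rik (chr1:194976375-195037904, plus strand), a long non-coding RNA that overlaps the hairpins of Mir29b-2 and Mir29c and was named after its values were seen, was at 416 and 457 CPM in the WT libraries and 2609 and 2527 CPM in the KO libraries. It was 5.88-fold higher, a log2 fold change of 2.56 (SE 0.0741, adjusted p = 5.05e-39). Counts assigned to the hairpin Mir29c were 4.49 and 6.38 CPM in the WT libraries and 47 and 38.5 CPM in the KO libraries, and its log2 fold change was 2.97 (SE 0.295, adjusted p = 8.91e-13). Counts assigned to Mir29b-2 were 2.35 and 0.912 CPM in the WT libraries and 31.7 and 36.3 CPM in the KO libraries, and its log2 fold change was 4.35 (SE 0.403, adjusted p = 5.86e-14). In all 3, every KO library was several times above every WT library. Both hairpins lie within A330023F24Rik and on its strand, so their reads cannot be parted from those of that transcript.

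Only 13 of 579 microRNA genes in the files reached 5 CPM. Of these, 5 rose and none fell (the others that rose were Mir17hg, Mir3078 and Mir124a-1). Mir29b-2 and Mir124a-1 passed this minimum only through the KO libraries and so had to be higher there, and the count is therefore no measure of the direction of microRNA genes. Mir17hg, the host of the miR-17/92 cluster, was at 19.1 and 21.7 CPM in the WT libraries and 51 and 49.1 CPM in the KO libraries, a log2 fold change of 1.30 (SE 0.224, adjusted p = 6.12e-06). Mir3078, which lies in the host transcript of Mir124a-1, was at 22.9 and 20.5 CPM in the WT libraries and 52.9 and 43.7 CPM in the KO libraries, and its log2 fold change was 1.15 (SE 0.23, adjusted p = 9.29e-05). Hairpins of the photoreceptor cluster held few counts. Mir182 had 6 and 7 counts in WT and 12 and 2 in KO, and Mir183 had 2 and 5 in WT and 2 and 5 in KO. Mir96 had 10 and 5 counts in WT and 20 and 31 in KO, and its log2 fold change was 1.40 (SE 0.767, adjusted p = 0.252). A difference in these hairpins was not detectable at this depth. Hosts of other microRNAs did not share one direction. 2210403K04Rik, the host of miR-22, was at 8.77 and 8.44 CPM in WT and 17.9 and 23.9 CPM in KO, with a log2 fold change of 1.28 (SE 0.350, adjusted p = 0.00503). 2810055G20Rik, the host of miR-99a, was at 19.3 and 15.3 CPM in WT and 5.74 and 8.25 CPM in KO, with a log2 fold change of -1.29 (SE 0.407, adjusted p = 0.0188). 2610100L16Rik, a host of miR-124, was at 175 and 192 CPM in WT and 178 and 177 CPM in KO, with a log2 fold change of -0.05 (SE 0.107, adjusted p = 0.841). These 3 hosts were named with their values already known.

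The genes were next parted by whether their 3 prime UTR holds a seed match. A 3 prime UTR was found for 10368 of the 10808 genes (95.9%), and 43.9% of these held a site for at least 1 of the 5 seeds, against 54.6% of the 1167 genes that rose and 46.2% of the 650 that fell under both scalings. For miR-182, 16.03% of 1441 genes with a site rose under both scalings against 10.5% of 8927 without. For miR-183 the shares were 15.1% of 1264 and 10.7% of 9104, for miR-29 14.3% of 1766 and 10.6% of 8602, for let-7b 14.3% of 1148 and 10.9% of 9220, and for miR-96 13.6% of 1128 and 10.97% of 9240. Genes with a site have longer UTRs, and long UTRs moved with the result. The median UTR with a miR-182 site was 2804 bases and without one 1227 bases, and among the genes with UTRs over 2108 bases, the longest of 3 equal groups, 16.6% of genes with the site and 12.5% without it rose. In that group the shares for miR-96 were 13.7% with and 13.7% without a site, and for let-7b 14.1% and 13.5%. For miR-29 they were 15.1% and 12.96%, and for miR-183 14.7% and 13.35%. In the short and the middle group the share was higher with a site than without for each of the 5 seeds. The median log2 fold change over all genes with a miR-182 site was 0.12 against 0.10 without one, and the share that fell was 7.63% against 6.05%. With and without a site the share that fell was 6.8% and 6.2% for miR-183 and 6.915% and 6.19% for miR-96. For let-7b it was 6.27% and 6.27%, and for miR-29 it was 5.89% and 6.35%. No test was made, and these shares are a description.

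Among the 12 genes higher by smallest p, 8 held at least 1 site of the 5 seeds in the UTR, 3 (Stom, Acsl1 and Tnc) held none and 1, a pseudogene, had no UTR. Among the 12 lower, 5 held at least 1 and 7 held none. The sites below are shown because they lie in genes whose rise is described in this text, with 14 bases before and 2 after the match in capitals, on the coding strand of GRCm38.
Ssx2ip, miR-182 site, chr3:146439734-146439756, plus strand: agggctttatatcaTTGCCAAta
Nptx1, miR-182 site, chr11:119538996-119539018, minus strand: caattttgtcttatTTGCCAAaa
Slc31a1, miR-182 site, chr4:62389428-62389450, plus strand: tgatcagaatgaacTTGCCAAtc
Plekhb1, miR-182 site, chr7:100644009-100644031, minus strand: tcatcctgtcccaaTTGCCAAta
Adcy6, miR-96 site, chr15:98591574-98591596, minus strand: atggtgacctgcagGTGCCAAag
Oxct1, miR-183 site, chr15:4155268-4155290, plus strand: acaactttctaagaGTGCCATga
Oxct1, miR-29 site, chr15:4154308-4154330, plus strand: ggcatatgctctgcTGGTGCTga
Dnmt3a, 1 of 5 miR-29 sites, chr12:3908558-3908580, plus strand: tcccgacttcataaTGGTGCTtt
Tet3, 1 of 8 miR-29 sites, chr6:83367983-83368005, minus strand: cccgagctgctctgTGGTGCTtt
Tet2, 1 of 5 miR-29 sites, chr3:133466331-133466353, minus strand: gttgcaggatcatcTGGTGCTga
Bmf, miR-29 site, chr2:118531355-118531377, minus strand: gtaaggaaagacatTGGTGCTat
A match is a run of letters and not a measured binding site.

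Reported targets of 3 microRNA groups were taken from textbook knowledge. Of 17 reported miR-29 targets, 7 rose and 3 fell, with a median log2 fold change of 0.33, and with the second scaling 5 rose and 4 fell and the median was 0.12. Those that rose include the enzymes that write and oxidise DNA methylation, whose sites are printed above. Dnmt3a, a DNA methyltransferase, was at 213 and 194 CPM in the WT libraries and 402 and 424 CPM in the KO libraries, a log2 fold change of 1.02 (SE 0.092, adjusted p = 2.34e-14). Tet3, which oxidises 5-methylcytosine, was at 107 and 100.3 CPM in the WT libraries and 211 and 203 CPM in the KO libraries, a log2 fold change of 1.00 (SE 0.114, adjusted p = 1.09e-10), and Tet2, of the same family, had a log2 fold change of 0.68 (SE 0.0915, adjusted p = 1.75e-08). The KO libraries lay above the WT libraries for these genes. Bmf, a pro-apoptotic member of the BCL2 family, was at 16.5 and 16.4 CPM in the WT libraries and 46.7 and 47.2 CPM in the KO libraries, a log2 fold change of 1.51 (SE 0.228, adjusted p = 2.96e-07). The matrix genes Fbn1 and Sparc, also reported targets of miR-29, fell, as did Tet1.

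Of 17 reported miR-124 targets, 6 rose and 1 fell, with a median of 0.37, and with the second scaling 6 rose and 2 fell and the median was 0.15. Among them the transcription factor Sp1 had a log2 fold change of 0.86 (SE 0.119, adjusted p = 3.74e-08), the integrin subunit Itgb1 of 0.94 (SE 0.149, adjusted p = 8.42e-07) and the cell cycle kinase Cdk6 of 1.05 (SE 0.186, adjusted p = 1.01e-05). Of 20 reported targets of the miR-183/96/182 cluster, 7 rose and 1 fell, but with the second scaling 3 rose and 1 fell and the median turned from 0.12 to -0.09. Adcy6, an adenylyl cyclase and a reported target of miR-182 and miR-96, was at 117 and 111 CPM in the WT libraries and 185 and 190.5 CPM in the KO libraries, a log2 fold change of 0.72 (SE 0.111, adjusted p = 4.19e-07). Ryk, a Wnt receptor, had a log2 fold change of 1.09 (SE 0.155, adjusted p = 5.82e-08), and Clock, of the circadian clock, of 0.42 (SE 0.0938, adjusted p = 0.000526), a call that Clock lost with the second scaling.

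The genes that rose with the smallest p included Oxct1, Ssx2ip, Nptx1, Bcat1, Stom, Acsl1, Plekhb1, Olfr1372-ps1, Tnc, Slc31a1 and Parvb. Oxct1, the enzyme that lets cells burn ketone bodies, was at 192 and 174 CPM in the WT libraries and 729.8 and 716 CPM in the KO libraries. It was 3.95-fold higher, a log2 fold change of 1.98 (SE 0.0908, adjusted p = 1.66e-27). Ssx2ip, a protein of centrosomes and adherens junctions, was at 211 and 215 CPM in the WT libraries and 746 and 731 CPM in the KO libraries, a log2 fold change of 1.79 (SE 0.0866, adjusted p = 2.09e-26). The replicates of each genotype lay close together in both genes. The genotypes did not overlap, but genes named by smallest p or largest change had to meet that condition. Lack of overlap is therefore no added support for any of them.

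Nptx1, a secreted pentraxin of synapses, was at 165 and 170.1 CPM in the WT libraries and 591 and 586 CPM in the KO libraries, a log2 fold change of 1.81 (SE 0.0897, adjusted p = 4.73e-26). Bcat1, the cytosolic transaminase of branched-chain amino acids, was at 375 and 376 CPM in the WT libraries and 1137 and 1110 CPM in the KO libraries, a log2 fold change of 1.58 (SE 0.0771, adjusted p = 2.78e-26). Stom, stomatin, a protein of the plasma membrane, was at 93.1 and 96 CPM in the WT libraries and 414 and 429 CPM in the KO libraries, a log2 fold change of 2.16 (SE 0.108, adjusted p = 7.8e-26). In each of the 3 the lower KO library was far above the higher WT library. Acsl1, which activates long-chain fatty acids, was at 161 and 131 CPM in the WT libraries and 519 and 532 CPM in the KO libraries, a log2 fold change of 1.85 (SE 0.0971, adjusted p = 7.94e-25). Plekhb1, a membrane protein abundant in photoreceptors, was at 1350 and 1277 CPM in the WT libraries and 3036 and 3112 CPM in the KO libraries, a log2 fold change of 1.23 (SE 0.0681, adjusted p = 1.14e-23). As the naming rule required, the genotypes did not overlap in either gene.

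Tnc, the matrix glycoprotein tenascin-C, was at 20.8 and 16.2 CPM in the WT libraries and 119 and 122 CPM in the KO libraries, a log2 fold change of 2.70 (SE 0.157, adjusted p = 1.2e-22). Slc31a1, the copper importer of the plasma membrane, was at 51.1 and 49.2 CPM in the WT libraries and 243 and 254 CPM in the KO libraries, a log2 fold change of 2.31 (SE 0.136, adjusted p = 2.47e-22). Parvb, a focal adhesion protein, was at 31.2 and 34.2 CPM in the WT libraries and 145 and 176 CPM in the KO libraries, a log2 fold change of 2.30 (SE 0.139, adjusted p = 9.08e-22). These genes had low to moderate levels in WT and no KO library came near them. Olfr1372-ps1, an olfactory receptor pseudogene, had a log2 fold change of 2.26 (SE 0.124, adjusted p = 6.99e-24), and reads of near-identical copies make this value uncertain.

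The largest rises by size came from genes close to the lower limit in WT. Col17a1, collagen XVII of hemidesmosomes, was at 5.56 and 5.02 CPM in the WT libraries and 76.1 and 79.3 CPM in the KO libraries, a log2 fold change of 3.87 (SE 0.25, adjusted p = 1.51e-20). Egr1, an immediate early transcription factor, was at 7.28 and 5.47 CPM in the WT libraries and 68.2 and 71.2 CPM in the KO libraries, a log2 fold change of 3.44 (SE 0.251, adjusted p = 3.86e-18). Nbl1, a secreted antagonist of bone morphogenetic proteins, was at 4.49 and 6.38 CPM in the WT libraries and 54.4 and 58.6 CPM in the KO libraries, a log2 fold change of 3.38 (SE 0.279, adjusted p = 6.6e-16). In these genes the KO level was about as high in the first as in the second replicate. Arhgap27, a GTPase-activating protein, Apobec2, a member of the cytidine deaminase family, and Slc24a5, an exchanger of sodium and calcium, had log2 fold changes of 3.21, 3.04 and 3.01. Abhd2, a lipase, was at 8.35 and 10.3 CPM in the WT libraries and 77.3 and 71.4 CPM in the KO libraries. Slc24a5 was the least even, at 5.35 and 1.37 CPM in the WT libraries and 37 and 19.1 CPM in the KO libraries. It passed the minimum only through the KO libraries and so had to be higher there.

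**Figure D2:**
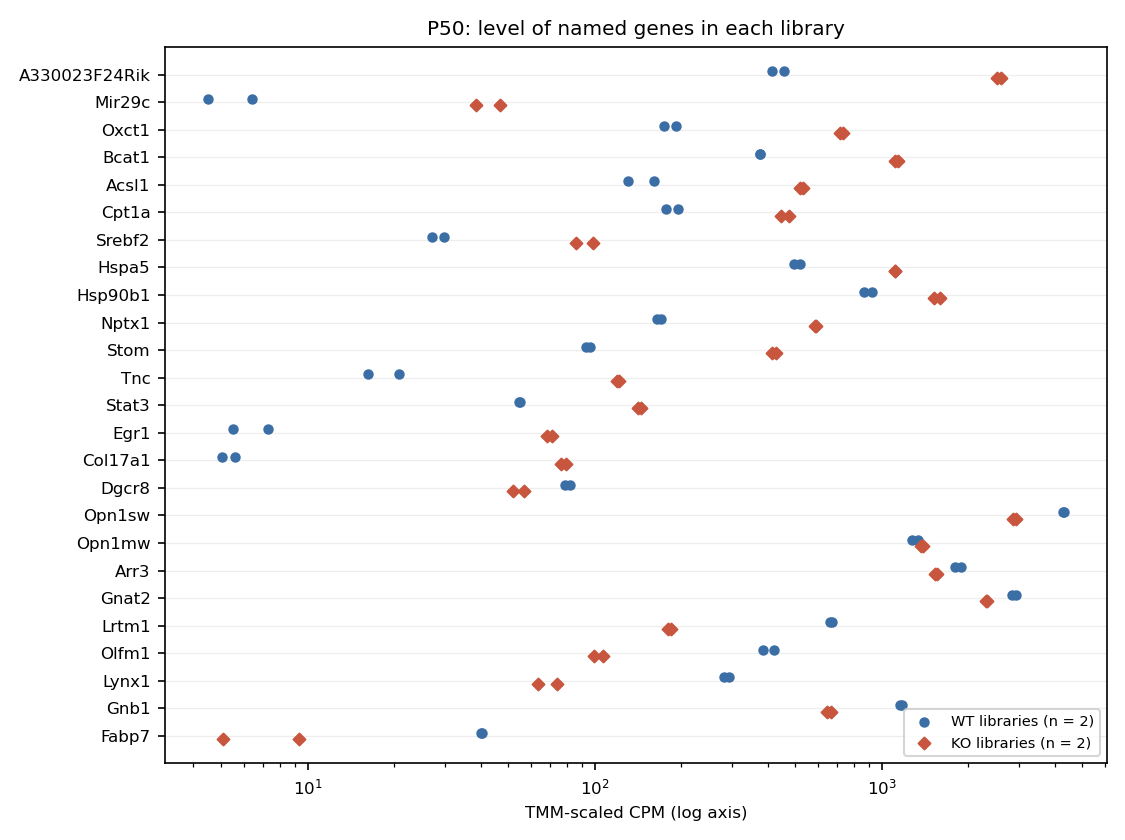
TMM-scaled CPM (log axis) of named genes in each of the 4 P50 libraries, WT as circles and KO as diamonds, 2 libraries each. The genotypes do not overlap in the genes that rose or fell, which the naming rule required of those named by smallest p or largest change. Oxct1 lies at 192 and 174 CPM in WT and 730 and 716 CPM in KO.

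Genes of cholesterol synthesis rose or were not called, and none fell. Of 28, 14 rose, with a median log2 fold change of 0.57 (0.36 with the second scaling, under which 13 rose and 1 fell). The unscaled summed level of the list was 1258 and 1247 CPM in WT and 2119 and 2113 CPM in KO. Srebf2, the transcription factor that induces the pathway when sterols are low, was at 29.8 and 27.1 CPM in the WT libraries and 85.8 and 98.9 CPM in the KO libraries, a log2 fold change of 1.70 (SE 0.166, adjusted p = 4.2e-13). Cyp51, lanosterol demethylase, was at 71.9 and 73.6 CPM in the WT libraries and 174 and 175 CPM in the KO libraries, a log2 fold change of 1.26 (SE 0.123, adjusted p = 4.97e-13). Rises were also called for genes that included Fdft1, Hmgcs1, Insig1, Sqle, Fdps, Mvd, Sc5d, Sc4mol, Scap, Srebf1 and Npc2, of which Sc5d lost the call with the second scaling.

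Genes of fatty acid and ketone body use rose in 14 of 31 cases and fell in 2, with a median of 0.39, and with the second scaling 13 rose and 6 fell and the median was 0.17. Cpt1a, the carnitine transferase that admits fatty acids to mitochondria, was at 177 and 195 CPM in the WT libraries and 444 and 476 CPM in the KO libraries, a log2 fold change of 1.31 (SE 0.0973, adjusted p = 9.68e-18). Acadvl, the first enzyme of beta-oxidation of very long chains, was at 102 and 92.8 CPM in the WT libraries and 248 and 248 CPM in the KO libraries, a log2 fold change of 1.35 (SE 0.11, adjusted p = 5.26e-16). Bdh1, which interconverts the ketone bodies upstream of Oxct1, had a log2 fold change of 1.23 (SE 0.225, adjusted p = 1.96e-05). Both KO libraries were above both WT libraries for these enzymes. The desaturases Fads1 and Fads2 and the elongases Elovl2 and Elovl4, which make very long polyunsaturated fatty acids, also rose, with log2 fold changes of 0.91, 1.88, 0.78 and 0.55. The 2 that fell were Fabp7, a fatty acid carrier of glia, and Acaca, of fatty acid synthesis, with log2 fold changes of -2.52 and -0.44.

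Glycolytic genes moved both ways. Of 23, 7 rose and 1 fell, with a median of 0.02 beside 0.09 for all genes. With the second scaling 4 rose and 7 fell, and the median was -0.19 beside -0.13. Among all genes 19.6% rose and 6.49% fell, and 11.04% and 13.8% with the second scaling. Aldoa, the muscle form of aldolase, had a log2 fold change of 0.64 (SE 0.0727, adjusted p = 7.01e-11), and Ldha, which makes lactate, of 0.68 (SE 0.0808, adjusted p = 4.47e-10). Ldhb, of the same family, fell, with a log2 fold change of -0.76 (SE 0.204, adjusted p = 0.00469). Of 75 genes of oxidative phosphorylation 9 rose and none fell, and with the second scaling 3 rose and 6 fell. Their median turned from 0.19 to -0.02. Among them Cox8a, a subunit of cytochrome oxidase, was at 60.8 and 61.8 CPM in the WT libraries and 101 and 126 CPM in the KO libraries, a log2 fold change of 0.89 (SE 0.157, adjusted p = 8.24e-06). Among 21 genes of amino acid metabolism 6 rose and 3 fell. Besides Bcat1, the glutamate transporter Slc1a2 rose, with a log2 fold change of 0.74 (SE 0.0608, adjusted p = 5.21e-16), while glutamine synthetase, Glul, with a log2 fold change of -0.57, and the glial transporter Slc1a3, at 74.7 and 82.8 CPM in the WT libraries and 35.5 and 42.6 CPM in the KO libraries, fell.

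Genes of the unfolded protein and integrated stress response rose in a large share of cases. Of 26, 18 rose and none fell, with a median of 0.61, and with the second scaling 12 rose, none fell and the median was 0.40. The members' unscaled summed level was 4719 and 4887 CPM in WT and 6494 and 6376 CPM in KO. Hspa5, the main chaperone of the endoplasmic reticulum, was at 494 and 518 CPM in the WT libraries and 1111 and 1111 CPM in the KO libraries, a log2 fold change of 1.14 (SE 0.0752, adjusted p = 4.7e-20). Hsp90b1, its HSP90 form, was at 865 and 925 CPM in the WT libraries and 1600 and 1523 CPM in the KO libraries, a log2 fold change of 0.80 (SE 0.0738, adjusted p = 4.73e-14). Eif2ak3, the kinase that senses unfolded protein, was at 46.6 and 47.4 CPM in the WT libraries and 109.8 and 106 CPM in the KO libraries, a log2 fold change of 1.20 (SE 0.148, adjusted p = 1.27e-09). KO and WT libraries did not overlap in any of the 3. Atf4 and Ddit3, transcription factors downstream of that kinase, had log2 fold changes of 0.57 (SE 0.0936, adjusted p = 1.82e-06) and 0.61 (SE 0.163, adjusted p = 0.00407), and Ddit3 lost its call with the second scaling (log2 fold change 0.40). Among those not called were Atf6, with 0.22 (SE 0.112, adjusted p = 0.201), and Ern1, the sensor that splices Xbp1, with -0.09 (SE 0.193, adjusted p = 0.84).

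A motif was looked for in the promoters of this list because its members moved together, and most of the promoters did not hold it. The endoplasmic reticulum stress element reads CCAAT, then 9 bases, then CCACG. It was searched on both strands from 250 bases before to 50 after the RefSeq start (GRCm38.p6). It stood in 35 of 27025 promoters (0.130%), in 12 of 8442 promoters of genes with at least 5 CPM (0.142%), in 6 of 16 promoters of list members that rose and in 1 of 7 of those not called. The matches are printed with the 2 blocks in capitals.
Hspa5, chr2:34772020-34772048, plus strand: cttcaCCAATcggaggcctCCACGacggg
Hsp90b1, chr10:86705528-86705556, plus strand: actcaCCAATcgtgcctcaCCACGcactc
Hsp90b1, chr10:86705633-86705661, minus strand: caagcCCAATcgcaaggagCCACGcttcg
Calr, chr8:84847070-84847098, plus strand: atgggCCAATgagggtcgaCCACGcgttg
Canx, chr11:50325795-50325823, minus strand: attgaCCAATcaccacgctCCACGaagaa
Creld2, chr15:88819515-88819543, minus strand: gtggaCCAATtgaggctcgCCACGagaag
Dnajc3, chr14:118937822-118937850, plus strand: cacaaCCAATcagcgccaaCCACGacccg
Pdia6, not called, chr12:17266486-17266514, plus strand: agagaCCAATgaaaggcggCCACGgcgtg
Canx and Creld2 lost their calls with the second scaling. Calr, a lectin chaperone, was at 428 and 425 CPM in the WT libraries and 678 and 706 CPM in the KO libraries, a log2 fold change of 0.70 (SE 0.0905, adjusted p = 5.29e-09). Pdia6, a disulphide isomerase, had a log2 fold change of 0.19 (SE 0.14, adjusted p = 0.462). Of the 10 cholesterol genes that rose and have a promoter entry, 1, Hmgcs1, held the sterol element CACCCCAC, which stood in 2.77% of all promoters, and of 10 not called none did. The list was drawn up with textbook targets of the first element in mind, so its share among members is no independent result.

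Chaperones of the cytosol rose too. Of 15 heat shock genes 9 rose and none fell, with a median of 0.46 (0.24 with the second scaling, under which 5 rose). Hsp90ab1, a cytosolic HSP90, was at 615 and 661 CPM in the WT libraries and 1281 and 1221 CPM in the KO libraries, a log2 fold change of 0.97 (SE 0.0914, adjusted p = 1.24e-13). Hsph1, a nucleotide exchange factor for HSP70, was at 138 and 167 CPM in the WT libraries and 338 and 308 CPM in the KO libraries, a log2 fold change of 1.08 (SE 0.114, adjusted p = 6.98e-12). Hspa2, an HSP70 form, was at 2.78 and 5.7 CPM in the WT libraries and 21.7 and 21.7 CPM in the KO libraries, a log2 fold change of 2.36 (SE 0.357, adjusted p = 2.96e-07). Hspa2, which is among the 9, passed the minimum only through the KO libraries and so had to be higher there. Of 31 genes of autophagy and the lysosome 12 rose and 1 fell, led by Gabarap, a protein of the autophagosome membrane, at 33.4 and 26.2 CPM in the WT libraries and 178 and 168 CPM in the KO libraries, a log2 fold change of 2.53 (SE 0.168, adjusted p = 4.84e-20), and Lamp1, of the lysosome membrane, with 1.02 (SE 0.0936, adjusted p = 4.56e-14). Of 35 proteasome and ubiquitin genes 8 rose and none fell, and with the second scaling 3 rose and 1 fell. The share that rose was near that of all genes, 19.6% with the first scaling and 11.04% with the second.

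Of 12 immediate early genes, which neurons switch on within minutes of a stimulus or of cell dissociation, 7 rose and none fell (5 rose and 1 fell with the second scaling). Their unscaled summed level was 454 and 436 CPM in WT and 731 and 774 CPM in KO. Nr4a1, an orphan nuclear receptor, was at 7.28 and 14.4 CPM in the WT libraries and 52.9 and 65.3 CPM in the KO libraries, a log2 fold change of 2.46 (SE 0.234, adjusted p = 1.65e-13). Btg2, an antiproliferative gene, was at 247 and 239 CPM in the WT libraries and 449 and 472 CPM in the KO libraries, a log2 fold change of 0.92 (SE 0.0958, adjusted p = 4.39e-12). The labels give no sorting or handling times, and their part in these values was not tested. Of 16 genes of p53 and apoptosis 4 rose and 1 fell (2 rose and 1 fell with the second scaling). Trp53inp1, a target of p53, had a log2 fold change of 0.67 (SE 0.11, adjusted p = 1.82e-06), and Xiap, which inhibits caspases, was at 649.7 and 697 CPM in the WT libraries and 427 and 435 CPM in the KO libraries, a log2 fold change of -0.64 (SE 0.0829, adjusted p = 4.49e-09).

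Signalling genes that respond to retinal injury moved both ways. Of 17, 7 rose and 4 fell. Lifr, the receptor of leukaemia inhibitory factor, was at 104 and 106 CPM in the WT libraries and 251 and 238 CPM in the KO libraries, a log2 fold change of 1.22 (SE 0.106, adjusted p = 5.84e-15). Stat3, which it activates, was at 54.6 and 55 CPM in the WT libraries and 142 and 145 CPM in the KO libraries, a log2 fold change of 1.39 (SE 0.132, adjusted p = 1.88e-13), and Clu, the secreted chaperone clusterin, was at 159.9 and 146 CPM in the WT libraries and 461 and 510.3 CPM in the KO libraries, a log2 fold change of 1.67 (SE 0.105, adjusted p = 4.06e-21). Each KO library exceeded each WT library in these genes. Gfap, the filament of reactive glia, had a log2 fold change of -0.94 (SE 0.633, adjusted p = 0.386) and was not called. Of 22 antioxidant genes 4 rose and 1 fell, and with the second scaling 1 rose, Mt1, a metallothionein, and 2 fell. Mt1 had a log2 fold change of 0.52 (SE 0.111, adjusted p = 0.000239). Nxnl1, the gene of a rod-derived cone viability factor, had a log2 fold change of -0.37 (SE 0.129, adjusted p = 0.0389), a call that was lost when either KO library or WT replicate 1 was left out.

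**Figure D3:**
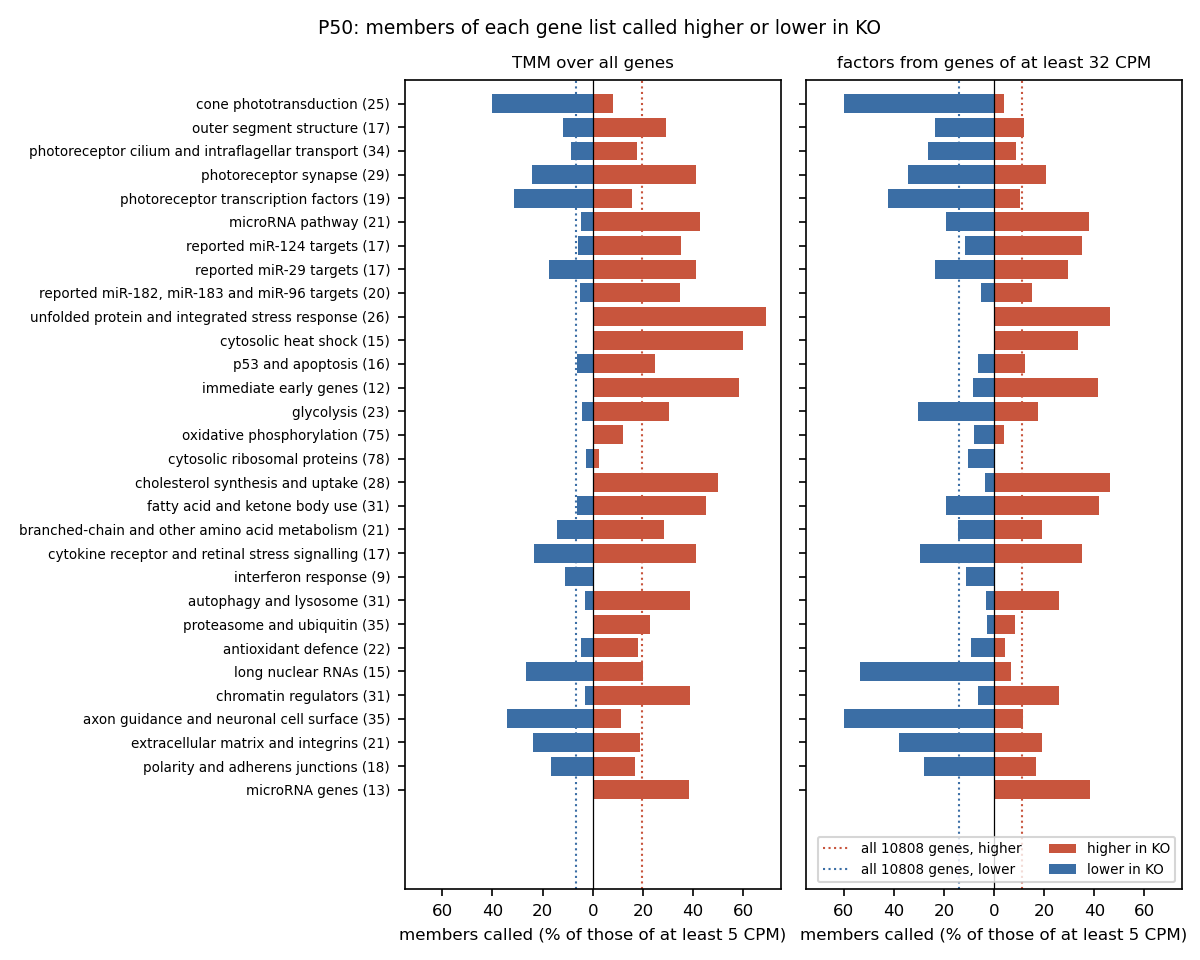
Share of each list's members with at least 5 CPM (number in brackets) called higher (right) or lower (left) in KO, with the first scaling in one panel and the second in the other. Dotted lines mark the shares among all 10808 genes, 19.6% and 6.49% with the first scaling, and 18 of 26 genes of the unfolded protein list were called higher.

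The genes that fell with the smallest p included Lrtm1, Olfm1, Lynx1, Dnahc9, Adcy1, Rab27b, Plcz1, Kcne2, Gnb1 and Gpr152. Lrtm1, a leucine-rich transmembrane protein, was at 661 and 671 CPM in the WT libraries and 184 and 179 CPM in the KO libraries. It was 3.67-fold lower, a log2 fold change of -1.87 (SE 0.0938, adjusted p = 7.61e-26). Lrtm1 lies within Cacna2d3, and the strand setting of the counting is not given, so its reads cannot be parted from those of that gene. Olfm1, a secreted glycoprotein of neurons, was at 422 and 386 CPM in the WT libraries and 99.2 and 107 CPM in the KO libraries, a log2 fold change of -1.97 (SE 0.101, adjusted p = 1.77e-25). Lynx1, a modulator of nicotinic receptors, was at 294 and 281 CPM in the WT libraries and 73.9 and 63.5 CPM in the KO libraries, a log2 fold change of -2.07 (SE 0.115, adjusted p = 1.14e-23). In these 3 genes the KO libraries lay far below the WT libraries, with little spread between replicates.

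Dnahc9, a dynein heavy chain of motile cilia, was at 231 and 273 CPM in the WT libraries and 65.4 and 62 CPM in the KO libraries, a log2 fold change of -1.99 (SE 0.113, adjusted p = 4.03e-23). Adcy1, a calcium-stimulated adenylyl cyclase, was at 393 and 389 CPM in the WT libraries and 173 and 177 CPM in the KO libraries, a log2 fold change of -1.16 (SE 0.0945, adjusted p = 5e-16). Rab27b, a GTPase of secretory vesicles, was at 191 and 185 CPM in the WT libraries and 74.2 and 61.2 CPM in the KO libraries, a log2 fold change of -1.48 (SE 0.125, adjusted p = 2.24e-15). The WT libraries were far above the KO libraries in each. Kcne2, an accessory subunit of potassium channels, was at 1609 and 1576 CPM in the WT libraries and 792 and 790.1 CPM in the KO libraries, a log2 fold change of -1.01 (SE 0.0896, adjusted p = 1.28e-14). Plcz1, a phospholipase C best known from sperm, was at 145 and 159 CPM in the WT libraries and 46.5 and 39.5 CPM in the KO libraries, a log2 fold change of -1.83 (SE 0.159, adjusted p = 5.84e-15). Gpr152, an orphan receptor gene that overlaps the synaptic gene Cabp4, had a log2 fold change of -1.18 (SE 0.115, adjusted p = 4.24e-13).

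The largest falls by size were in genes of low level. En2, Alk and Rhoj among them passed the minimum of 5 CPM only through the WT libraries and so had to be lower in KO. Their direction is therefore no result. En2, an engrailed homeobox gene, was at 18.8 and 10.03 CPM in the WT libraries and 1.91 and 2.32 CPM in the KO libraries, a log2 fold change of -2.75 (SE 0.442, adjusted p = 1.26e-06). Fabp7 was at 40.02 and 40.4 CPM in the WT libraries and 9.35 and 5.07 CPM in the KO libraries, a log2 fold change of -2.52 (SE 0.284, adjusted p = 6.3e-11). Wscd2, Fbxw21 and Agxt2l1 had log2 fold changes of -2.45, -2.55 and -2.35. Alk, a receptor tyrosine kinase, was at 18.4 and 9.8 CPM in the WT libraries and 3.4 and 3.04 CPM in the KO libraries, and its call was lost without WT replicate 1 (adjusted p = 0.0660). Rhoj, a small GTPase, was at 7.92 and 8.44 CPM in the WT libraries and 0.425 and 3.19 CPM in the KO libraries, and its call was lost without WT replicate 2 (adjusted p = 0.0654) or KO replicate 1 (adjusted p = 0.300). The spread between replicates was wide for both.

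The genes that define cones moved little or fell modestly. Opn1sw, the short-wavelength opsin, was at 4318 and 4286 CPM in the WT libraries and 2926 and 2868 CPM in the KO libraries. Both KO libraries were lower, a log2 fold change of -0.57 (SE 0.0569, adjusted p = 1.04e-12). Opn1mw, the middle-wavelength opsin, was at 1338 and 1277 CPM in the WT libraries and 1364 and 1389 CPM in the KO libraries, a log2 fold change of 0.07 (SE 0.0816, adjusted p = 0.652) that the second scaling turned to -0.14. It did not pass the test. Arr3, cone arrestin, was at 1793 and 1891 CPM in the WT libraries and 1556 and 1526 CPM in the KO libraries, a log2 fold change of -0.26 (SE 0.0685, adjusted p = 0.00403), and its call was lost without WT replicate 2 (adjusted p = 0.113) or KO replicate 2 (adjusted p = 0.0797). Gnat2, the cone transducin alpha subunit, was at 2929 and 2835 CPM in the WT libraries and 2328 and 2305 CPM in the KO libraries, a log2 fold change of -0.32 (SE 0.0683, adjusted p = 0.000304). Pde6c, the catalytic subunit of the cone phosphodiesterase, was at 3650 and 3658 CPM in the WT libraries and 3730 and 3639 CPM in the KO libraries, a log2 fold change of 0.01 (SE 0.0655, adjusted p = 0.949). With the second scaling Pde6c stood at -0.20 (adjusted p = 0.00685).

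In the list of cone phototransduction, 2 of 25 rose and 10 fell, with a median of -0.01, and with the second scaling 1 rose and 15 fell and the median was -0.22. The members' unscaled summed level was 40290 and 40530 CPM in WT and 32400 and 32010 CPM in KO, a gap that TMM scaling narrows. Gnb3, the cone transducin beta subunit, was at 847 and 854 CPM in the WT libraries and 1289 and 1272 CPM in the KO libraries and rose, with a log2 fold change of 0.59 (SE 0.0739, adjusted p = 1.85e-09). Guca1b, an activator of guanylyl cyclase, was at 174 and 181 CPM in the WT libraries and 93.7 and 97.9 CPM in the KO libraries, a log2 fold change of -0.89 (SE 0.116, adjusted p = 6.45e-09). Gucy2f, a guanylyl cyclase, was at 280.1 and 274 CPM in the WT libraries and 160.2 and 161 CPM in the KO libraries, a log2 fold change of -0.79 (SE 0.107, adjusted p = 2.25e-08). Several of the genes that fell, among them Guca1b, Gucy2f, Slc24a1, Rcvrn, Rgs9bp and Grk1, are also used by rods. Opn1sw and Opn1mw each overlap another gene in the annotation, so some of their reads may belong to the other gene. The channel subunits Cnga3 and Cngb3, which form the cone channel, had log2 fold changes of 0.22 (SE 0.0878, adjusted p = 0.0763) and -0.05 (SE 0.0766, adjusted p = 0.796) and did not pass the test.

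Markers of other retinal cells fell beside these changes. Of 13 rod markers 10 fell and 1 rose, with a median of -0.40. Their unscaled summed level was 19410 and 19410 CPM in WT and 12560 and 12710 CPM in KO. Gnb1, the rod transducin beta subunit, was at 1159 and 1177 CPM in the WT libraries and 667 and 645 CPM in the KO libraries, a log2 fold change of -0.83 (SE 0.0771, adjusted p = 6.29e-14). The KO libraries lay below the WT libraries. Of 9 Mueller glia markers 8 fell, with a median of -0.75 and a summed level of 1276 and 1306 CPM in WT and 737 and 664 CPM in KO. Glul was at 598 and 608 CPM in the WT libraries and 441 and 372 CPM in the KO libraries and Apoe at 143 and 141 CPM in the WT libraries and 85.4 and 83.4 CPM in the KO libraries.

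Of 11 bipolar cell markers 3 fell and none rose, and their sum was 841 and 798 CPM in WT and 529 and 499 CPM in KO. Of 9 amacrine markers 3 fell, with a sum of 409 and 441 CPM in WT and 207 and 224 CPM in KO. Of 4 horizontal cell markers 2 fell, with a sum of 233 and 219 CPM in WT and 178 and 175 CPM in KO. In all of these the sums were lower in KO. Of 7 ganglion cell markers 3 fell and 1, Nefh, rose, and of 3 vessel markers 1 fell, with sums of 348 and 378 CPM in WT and 261 and 272 CPM in KO and 115 and 105 CPM in WT and 60.9 and 56.8 CPM in KO. Nefl and Nefm overlap in the annotation. No marker of 9 for microglia reached 5 CPM, and their sum was 10.8 and 10.8 CPM in WT and 9.59 and 9.3 CPM in KO. The sums of pigment epithelium and astrocyte markers were at most 29.2 CPM, and those of erythrocytes and lens at most 6.88 CPM in any library. The libraries of both genotypes thus held transcripts of other retinal cells. The unscaled sum of each of these lists except that of the lens was lower in both KO libraries than in both WT libraries. TMM scaling multiplies CPM by 0.929 and 0.928 in the WT libraries and by 1.086 and 1.09 in the KO libraries. Scaling therefore narrows these gaps, and the microglia sums are then not lower in KO. In such bulk samples fewer cells of a type and less RNA per cell cannot be told apart. The part of other cells' RNA in the differences of this text was not tested, for genes that rose or for genes that fell. Glul, Fabp7 and Crb1 are among the genes that fell and that rods or glia also express.

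**Figure D4:**
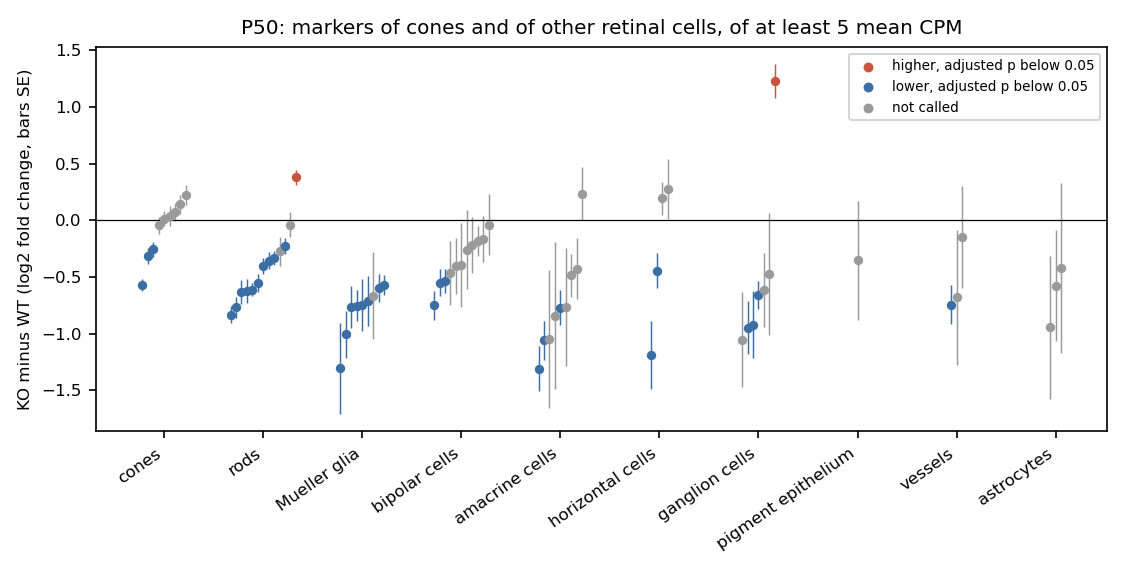
Log2 fold change, KO minus WT, with SE, of the markers of cones and of other retinal cells that reached 5 CPM, each point 1 gene. Most rod markers and all but 1 Mueller glia marker were called lower, and the cone markers lie on both sides of 0.

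Structural genes of the outer segment were split. Of 17, 5 rose and 2 fell, and with the second scaling 2 rose and 4 fell. Cdhr1, a cadherin at the base of the discs, was at 785 and 776 CPM in the WT libraries and 1484 and 1533 CPM in the KO libraries, a log2 fold change of 0.95 (SE 0.0728, adjusted p = 3.4e-17). Prom1, of nascent discs, was at 883 and 886 CPM in the WT libraries and 1350 and 1350 CPM in the KO libraries, a log2 fold change of 0.61 (SE 0.0732, adjusted p = 5.34e-10). Rp1, a microtubule protein of the axoneme, was at 3382 and 3327 CPM in the WT libraries and 2566 and 2548 CPM in the KO libraries and fell, with a log2 fold change of -0.39 (SE 0.058, adjusted p = 1.87e-07). Prph2, the disc rim protein, had a log2 fold change of -0.23 (SE 0.0628, adjusted p = 0.00569). Of 34 genes of the cilium and intraflagellar transport 6 rose and 3 fell, and with the second scaling 3 rose and 9 fell. Ahi1 and Cep290, of the transition zone, had log2 fold changes of 0.55 (SE 0.0836, adjusted p = 3.18e-07) and 0.47 (SE 0.084, adjusted p = 9.78e-06). Rp2h, mouse RP2, was at 46 and 44.9 CPM in the WT libraries and 19.1 and 24.2 CPM in the KO libraries, a log2 fold change of -1.06 (SE 0.228, adjusted p = 0.000275).

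At the synapse 12 of 29 genes rose and 7 fell, and with the second scaling 6 rose and 10 fell, which turned the median from 0.15 to -0.07. Cacna2d4, the calcium channel subunit of photoreceptor terminals, was at 452 and 468 CPM in the WT libraries and 809 and 820.1 CPM in the KO libraries, a log2 fold change of 0.82 (SE 0.0783, adjusted p = 1.73e-13). Syp, synaptophysin, was at 1852 and 1803 CPM in the WT libraries and 2894 and 2838 CPM in the KO libraries, a log2 fold change of 0.65 (SE 0.0756, adjusted p = 1.99e-10). Cplx4, a complexin of ribbon synapses, was at 952 and 1017 CPM in the WT libraries and 556 and 531 CPM in the KO libraries, a log2 fold change of -0.86 (SE 0.0861, adjusted p = 1.31e-12). The first 2 were higher and the last lower in both KO libraries. Among 19 photoreceptor transcription factors 3 rose and 6 fell. Crx, which acts in rods and cones, was at 961 and 918 CPM in the WT libraries and 1496 and 1547 CPM in the KO libraries, a log2 fold change of 0.70 (SE 0.0762, adjusted p = 2.72e-11), while Nrl, which directs rod fate, was at 265 and 252 CPM in the WT libraries and 159 and 175 CPM in the KO libraries, a log2 fold change of -0.63 (SE 0.105, adjusted p = 3.68e-06). Thrb, the thyroid hormone receptor that controls cone opsins, was at 746 and 746 CPM in the WT libraries and 627 and 645 CPM in the KO libraries, a log2 fold change of -0.23 (SE 0.0824, adjusted p = 0.0458) whose call was lost when any 1 P50 library was left out. Nr2e3, a rod factor, and Rxrg, a cone factor, had log2 fold changes of -0.27 (SE 0.126, adjusted p = 0.148) and 0.10 (SE 0.181, adjusted p = 0.816) and were not called.

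Long RNAs of the nucleus were uneven. Of 15, 3 rose and 4 fell, and with the second scaling 1 rose and 8 fell. Malat1, of nuclear speckles, was at 49700 and 50070 CPM in the WT libraries and 81300 and 80070 CPM in the KO libraries and rose, with a log2 fold change of 0.69 (SE 0.0542, adjusted p = 8.64e-17). Snhg11 and Meg3, long non-coding RNAs of neurons, fell, with log2 fold changes of -0.93 (SE 0.13, adjusted p = 3.95e-08) and -0.71 (SE 0.106, adjusted p = 1.89e-07). Of 31 chromatin regulators 12 rose and 1, Tet1, fell (8 rose and 2 fell with the second scaling), with Hdac5, a histone deacetylase, at 68.5 and 81.4 CPM in the WT libraries and 147 and 152 CPM in the KO libraries, a log2 fold change of 1.00 (SE 0.129, adjusted p = 4.42e-09). Genes of cytosolic ribosomal proteins hardly moved, with 2 of 78 higher and 2 lower and a median of -0.01, although with the second scaling none rose, 8 fell and the median was -0.23. Each of the 4 calls (Rpl23a, Rpl15, Rpl7 and Rpl36a) was lost under some of the alternatives tried.

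Among genes of axon guidance and the neuronal surface more fell than rose. Of 35, 12 fell and 4 rose, with a median of -0.61, and with the second scaling 21 fell and 4 rose and the median was -0.83. Besides Lrtm1, Olfm1 and Lynx1, the guidance genes Robo2, Slit2, Sema3a, Sema3e, Unc5c and Efna5 and the adhesion genes Nrxn2 and Nlgn1 fell, and many of these are also expressed by inner retinal neurons, whose markers were lower in KO. Cntn1, a contactin, was at 90.1 and 97.3 CPM in the WT libraries and 209.5 and 213 CPM in the KO libraries and rose, with a log2 fold change of 1.17 (SE 0.12, adjusted p = 2.58e-12). Of 21 genes of the matrix and its receptors 4 rose and 5 fell (4 and 8 with the second scaling). Impg2 and Impg1, the interphotoreceptor matrix proteoglycans, were at 1112 and 1158 CPM in the WT libraries and 2031 and 1997 CPM in the KO libraries and at 301 and 287 CPM in the WT libraries and 506 and 515 CPM in the KO libraries, and had log2 fold changes of 0.83 (SE 0.0669, adjusted p = 3.53e-16) and 0.80 (SE 0.0981, adjusted p = 1.16e-09). Among 18 polarity and junction genes 3 rose and 3 fell (3 and 5 with the second scaling), with Cdh2, N-cadherin, at 0.80 (SE 0.132, adjusted p = 2.11e-06) and Crb1, of the outer limiting membrane, at -0.75 (SE 0.0851, adjusted p = 8.58e-11) on the log2 scale.

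Whether the genotype difference at P50 was that of P40 or of P60 was tested as a difference of differences, in the same fit. Ages share no library. At P40 the olfactory and vomeronasal receptor genes took 0.151% and 0.157% of counts in WT and 0.0581% and 0.0600% in KO. At P60 they took 0.00925% and 0.00980% in WT and 0.0408% and 0.0390% in KO. Their share, which includes that of Olfr1372-ps1, was less even at both ages than at P50. Its part in these tests was not tested. Only 17 genes (0.157%) had a higher and 96 (0.888%) a lower difference at P50 than at P40, 17 (0.157%) and 21 (0.194%) of them under both scalings. Against P60, 1947 genes (18.01%) had a higher and 1069 (9.89%) a lower difference at P50, 810 (7.49%) and 1069 (9.89%) of them under both scalings. Across the 10808 genes, which are not independent replicates, the differences at P50 had a Pearson correlation of 0.733 with those at P40 and of 0.189 with those at P60.

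Of the 1193 genes that rose at P50 under both scalings, 1101 were called higher at P40 and 734 at P60, and 0 and 69 were called lower. Of the 701 that fell, 151 were called lower at P40 and 305 at P60, and 9 and 169 were called higher. Among all 10808 genes, 26.7% were called higher and 3.37% lower at P40, and 21.1% higher and 21.4% lower at P60. The share called the same way at P40 depended on the scaling. It was 92.3% of the genes that rose and 21.5% of those that fell with the first, and 59.6% and 66.8% with the second, beside 7.95% called higher and 12.1% called lower at P40 among all genes with the second. The sign at P40 was that of P50 in 1190 of the 1193 and in 590 of the 701 genes (84.2%) with the first scaling.

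Rises that were larger at P50 than at P40 included Stom and Egr1. Stom was at 97.4 and 92 CPM in WT and 209 and 211 CPM in KO at P40, and the difference at P50 was larger by 1.01 (SE 0.152, adjusted p = 1.49e-05), a log2 value. Egr1 was at 12.2 and 11.2 CPM in WT and 18.5 and 26 CPM in KO at P40, and its difference was larger by 2.53 (SE 0.365, adjusted p = 5e-06). Col17a1 was at 11 and 18 CPM in WT and 51.4 and 55.4 CPM in KO at P40, and its difference was larger by 1.97 (SE 0.35, adjusted p = 0.000367). For Stom and Egr1 the WT levels changed less between these ages than the KO levels. In the other direction, Opn1mw was at 1188 and 1173 CPM in WT and 2283 and 2241 CPM in KO at P40, so that KO stood above WT at P40 and near it at P50, a change of -0.86 (SE 0.116, adjusted p = 7.98e-07). Olfm1 was at 468 and 399 CPM in WT and 261 and 234 CPM in KO at P40, a change of -1.16 (SE 0.137, adjusted p = 4.21e-08), and Cabp5, a bipolar cell marker, was at 139 and 135 CPM in WT and 224 and 219 CPM in KO at P40, a change of -1.23 (SE 0.154, adjusted p = 1.29e-07). Thrb was at 669 and 587 CPM in WT and 949 and 965 CPM in KO at P40, a change of -0.84 (SE 0.117, adjusted p = 2.37e-06). Of the 25 genes of cone phototransduction, 15 rose and 2 fell at P40, but with the second scaling 2 rose and 8 fell there. In that list 2 genes, Arr3 and Opn1mw, had a lower difference at P50 than at P40 under both scalings and none a higher one. None of 26 genes of the unfolded protein list differed between P40 and P50 under both scalings.

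Between P50 and P60 the cone genes parted. Opn1mw was at 2200 and 2337 CPM in WT and 360.2 and 387 CPM in KO at P60, and the difference at P50 was higher by 2.67 (SE 0.118, adjusted p = 3.19e-28). Opn1sw was at 7462 and 7400 CPM in WT and 1795 and 1995 CPM in KO at P60, and its difference was higher by 1.40 (SE 0.0806, adjusted p = 2.32e-22). Pde6c was at 6229 and 6158 CPM in WT and 2167 and 2152 CPM in KO at P60, and its difference was higher by 1.53 (SE 0.0931, adjusted p = 2.77e-21). For all 3 the WT level was higher and the KO level lower at P60 than at P50. Arr3 was at 4398 and 4323 CPM in WT and 1391 and 1520 CPM in KO at P60, and its difference was higher by 1.32 (SE 0.097, adjusted p = 2.12e-17), with the change mostly in WT. In the list of cone phototransduction 15 of 25 genes had a higher difference at P50 than at P60 under both scalings and 3 (Guca1b, Gucy2f and Slc24a1) a lower one.

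Markers of other cells turned the opposite way at the same time. Gnb1 was at 355 and 386 CPM in WT and 847 and 760.3 CPM in KO at P60, and its difference at P50 minus that at P60 was -1.95 (SE 0.109, adjusted p = 1.19e-22). At P60 it was lower in WT than in KO, the reverse of P50. Under both scalings 9 of 13 rod markers and 9 of 9 Mueller glia markers had a lower difference at P50 than at P60, and Ttn, the giant muscle protein gene, and the neuronal RNAs Snhg11 and Meg3 followed them. Ttn was at 5.59 and 2.29 CPM in WT and 55.9 and 43.4 CPM in KO at P60. For Gnb1 and Ttn the WT level was lower at P60 than at P50, and the part of other cells' RNA in the change of the cone genes was not tested. In the unfolded protein list 11 of 26 genes, Hspa5 among them, had a higher difference at P50 than at P60 under both scalings and none a lower one. Among 28 cholesterol genes 2, Scap among them, were higher and 4 were lower.

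**Figure D5:**
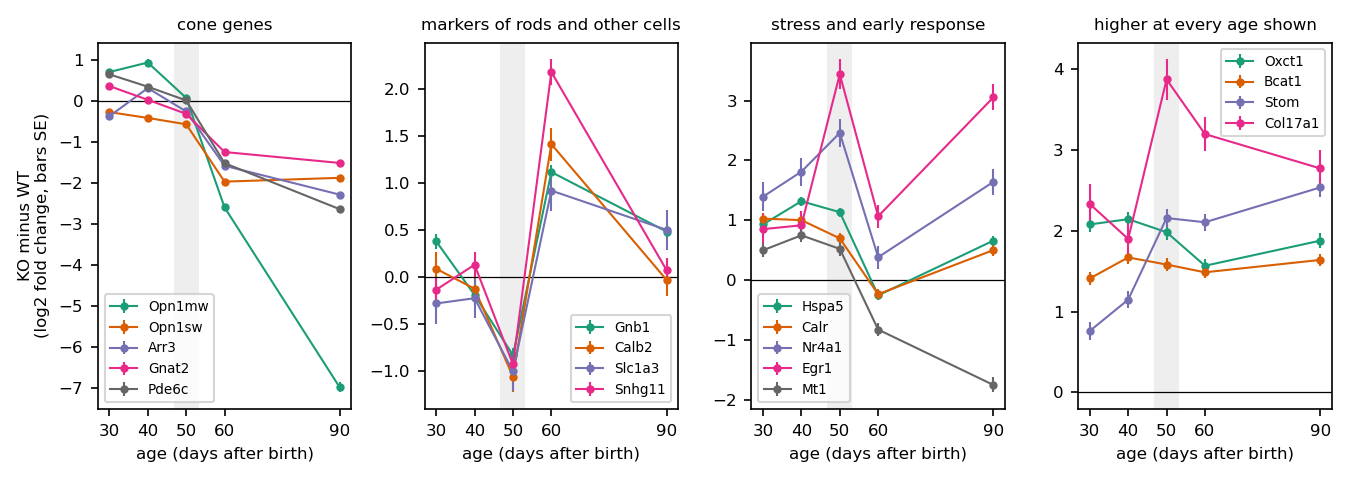
Log2 fold change, KO minus WT, with SE, of named genes at the 5 ages of the time course (postnatal days on the horizontal axis, 2 libraries of each genotype at each age). Opn1mw goes from 0.94 at P40 to 0.07 at P50 and -2.60 at P60, and Stom from 1.15 at P40 to 2.16 at P50 and 2.10 at P60.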

How the data were processed

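Whole-number counts per gene symbol were taken as deposited, 1 file for each of 20 libraries (10 groups of 2). Per the labels' protocols, 150 ng of total RNA from sorted cones, extracted with Trizol or Arcturus PicoPure, was the input of each library (ScriptSeq Complete Low Input kit), and 4 libraries shared a HiSeq 2000 lane. Which library had which extraction or lane is not given. The build is mm10 (GRCm38) and the software CASAVA 1.8.0, per the submitters' processing notes. Aligner, counter, annotation, strand setting and duplicate handling: not given in the sources used here. Overlapping and antisense genes therefore cannot be parted.

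From the counts, edgeR 4.0.16 (R 4.3.3, limma 3.58.1) was run with TMM factors, filterByExpr, 1 coefficient per group and a quasi-likelihood test, which kept 18354 genes (biological coefficient of variation 0.161). The 2 entries without a symbol (14 counts) were left out. P-values were adjusted over all genes tested, calls were counted among genes of at least 5 mean CPM, and the procedure was tested on simulated data. The second scaling used TMM factors from genes of at least 32 mean CPM over all 20 libraries. DESeq2 1.42.0 and other alternatives are given in the closing part. Symbols were matched to GENCODE M21, with 20907 exact matches, 1749 by an older symbol and 421 unmatched. The longest annotated 3 prime UTR was searched for seed sites. Figures were drawn with matplotlib 3.10.9.

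Genes were named by rule: the 12 higher and 12 lower of smallest p and the 8 of largest change each way, called under both scalings with no overlap of libraries; up to 4 of smallest p in each list; the 6 each way of smallest p in each difference between ages; and Dgcr8, Drosha, Dicer1, Opn1sw, Opn1mw, Arr3, Gnat2 and Xist always. Clone names were passed over outside the lists. Some genes that the rule takes are not reported here, though list counts, medians and sums include them. A few further list members are named with values to show what was not called. Members, lists and tests were chosen with earlier results of these data known.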

Additional observations from a re-analysis of the deposited data

Results flagged for a closer look

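Differences between genotypes that changed with age, each by a test of the difference of differences in edgeR, are given here as log2 values of the P50 difference minus that of the other age. Against P40 the test called 17 genes with a higher and 96 with a lower difference at P50, 17 and 21 of them under both scalings. Those named are Egr1 (2.53), Cenpf (2.06), Col17a1 (1.97), Ttn (1.04), Hjurp (1.02) and Stom (1.01) on the higher side. On the lower side they are Xist (-6.68), Cabp5 (-1.23), Olfm1 (-1.16), Opn1mw (-0.86), Thrb (-0.84) and Pcdh15 (-0.83). Xist was at 11.3 and 11.5 CPM in WT and 652 and 632 CPM in KO at P40, so libraries of that age differed in the sexes of the animals they held, and the part of this in other genes was not tested. Cenpf and Ttn were lower in KO at P40, with log2 fold changes of -1.94 and -1.47, and Cenpf was not called at P50.

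Against P60 the test called 1947 genes with a higher and 1069 with a lower difference at P50. Those named are Opn1mw (2.67), Fam19a3 (2.04), Pde6c (1.53), Opn1sw (1.40), Arr3 (1.32) and Akap11 (1.24) on the higher side. On the lower side they are Ttn (-4.06), Snhg11 (-3.11), Xist (-2.19), Meg3 (-1.96) and Gnb1 (-1.95). Akap11, a kinase anchor protein, was higher in KO at P50, with a log2 fold change of 0.86, and lower at P60, with -0.38.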

How the results depend on the processing

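Of 170 named genes, 165 were called at P50. The 13 settings tried include a test against a 1.5-fold change, under which 89 lost the call. In all the other settings 138 of the 165 kept their direction and their call. Pde6c, near 0 in the fit reported, turned to -0.20 with factors from genes of at least 32 mean CPM and to -0.16 when only genes of at least 5 CPM were tested.

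The counts of genes moved more. At P50, 2114 higher and 701 lower became 1193 and 1490 with factors from genes of at least 32 CPM, 1311 and 1267 with factors from genes of at least 5 CPM, and 397 and 73 against a 1.5-fold change. The number lower was 1475 when only genes of at least 5 CPM were tested and 1316 when only the P50 libraries were fitted. Leaving out 1 library gave 1483 to 1624 higher and 352 to 425 lower, the fewest without KO replicate 2. With the replicate number as a block the counts were 2091 and 676 at P50, 16 and 93 against P40 and 1897 and 1032 against P60. At each age the differences between replicates 1 and 2 in WT were correlated over genes with those in KO. These correlations were -0.0111 to 0.0244 over the 5 ages, so the numbers were not taken as pairs.

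Against P40, 17 higher and 96 lower became 27 and 21 with factors from genes of at least 32 CPM, 84 and 418 with the libraries of the ages compared alone, and 2 and 4 against a 1.5-fold change. DESeq2 called 30 higher. The number lower was 24 with RLE factors, 22 with factors from genes of at least 5 CPM and 21 when only those genes were tested. Leaving out 1 library gave 4 to 9 higher and 34 to 60 lower. Against P60, 1947 higher became 1240 with RLE factors, 810 with factors from genes of at least 32 CPM, 974 with factors from genes of at least 5 CPM or with only those tested, 1186 with DESeq2 and 1108 with the compared ages alone. Against a 1.5-fold change 338 were higher and 582 lower. The causes were not tested.

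Depth limits the hairpins of Mir182 and Mir183, which held at most 12 counts in any P50 library. The count of genes lower at P50 rests on all 4 libraries.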
